A study of Mus musculus with 16 samples.

Results

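Growth cone and migrating neuron genes form a set of 7 genes, Gap43, Basp1, Marcks, Marcksl1, Cd24a, Nrep and Igfbpl1, chosen by name from knowledge of young neurons. Each was found by its current symbol or an older synonym, and each has 1 probe among the 24109 gene probes of the array, which name 18888 genes; Nrep is listed under its older name D0H4S114. Messenger RNA was measured on 16 spotted arrays of mouse gene probes, with 1 sample labelled with the dye Cy5 on each. The 4 single-cell arrays carry individual cells taken at embryonic day 14 from explants of the caudal ganglionic eminence (CGE) of OF1 mice, lysed and reverse-transcribed for 25 min in a microfluidic rotary mixer and amplified by 40 cycles of template-switching PCR. The 3 explant arrays carry 5 µg of unamplified RNA from OF1 tissue of embryonic day 14, which the sample labels call CGE and the extraction protocol calls telencephalon. The 3 microfluidic arrays carry 10 pg of forebrain RNA from adult female B6.C3Sn mice, reverse-transcribed for 20 min in 7 nL inside the mixer, and the 3 conventional arrays carry 10 pg of the same kind of RNA, reverse-transcribed for 20 min in a tube of 10 µL. Both 10 pg groups went through 40 PCR cycles. The 3 control arrays carry 15 µg of unamplified forebrain RNA from adult female B6.C3Sn mice. Single cells, explants and controls were labelled by different chemistries, so explants differ from controls in age, strain, dissected tissue, RNA amount and labelling at once, and these cannot be told apart. No label says that the replicates of a group came from separate animals, so p-values measure the spread between arrays, which may be technical.

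A growth cone is the motile tip of a growing axon or of the leading process of a migrating neuron. It advances by rebuilding its actin and microtubule skeleton under a membrane whose phosphoinositide lipids recruit actin regulators. Gap43, Basp1 and Marcks encode acylated proteins that lie on the inner face of that membrane, hold phosphoinositides and are released on phosphorylation by protein kinase C; Marcksl1 is a smaller relative of Marcks. Cd24a encodes a heavily glycosylated surface protein held by a lipid anchor, known from immature neurons and also from B cells and granulocytes. Nrep encodes a small intracellular protein linked to axon regeneration, and Igfbpl1 a secreted relative of the insulin-like growth factor binding proteins that is made by newborn neurons. Interneurons born in the CGE migrate over long distances into the cortex, whereas most adult forebrain neurons have stopped migrating; Gap43, Basp1 and Marcks remain in adult presynaptic terminals or dendrites.

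Net intensity below is the median foreground minus the median local background of a spot in scanner units, and a spot is saturated where its foreground reached the scanner's ceiling. Normalized values are log2 intensities after background correction and quantile normalization over the 16 arrays, and a spot counts as detected where its foreground exceeds the background by more than 2 background SD. Between 26.5% and 52.5% of gene probes were detected on a single-cell array, 14.8% to 29.0% on an explant array, 37.9% to 54.0% on a microfluidic array, 3.25% to 5.76% on a conventional array and 64.7% to 69.3% on a control array. The lowest normalized value that counted as detected was 13.84 to 14.86 on the conventional arrays and 9.50 to 9.67 on the control arrays. Of the 7 genes, 1 to 6 were detected in a cell, all 7 on each explant array, 3 to 6 on a microfluidic array, 1 or 2 on a conventional array and 6 on each control array. Where the headers give a scan session it holds arrays of 1 group only; cell 4 was scanned apart from cells 1 to 3, and the explant slides belong to another print series, so session and group cannot be told apart. The young-neuron list (Dcx, Tubb3, Sox11, Sox4 and Stmn2) was detected for 3 to 5 of 5 genes in each cell and 4 or 5 on each explant. Of 9 measured CGE markers, 2 to 7 were detected in a cell and 7 or 8 on an explant, where Sp8 was not detected on explants 2 and 3 and had a bad spot on explant 1. Of 7 markers of the pallial, glutamatergic lineage, 6 were detected in each of cells 1, 2 and 3 and 1 in cell 4. Of these markers, Emx2, Eomes and Slc17a7 were detected on no explant array. The cells also detected 1 to 3 of 6 oligodendrocyte, 0 to 2 of 6 astrocyte, 1 or 2 of 6 microglia and 1 to 3 of 5 endothelial markers. Detection of a marker in a cell is therefore not read as its lineage.

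The primers of the amplification are shown here because every single-cell, microfluidic and conventional value passed through them. The capitals mark the 3′ end of the template-switching primer that the PCR primer lacks; it pairs with bases that the reverse transcriptase adds where it reaches the end of an RNA.
template-switching primer: aagcagtggtatcaacgcagagtACGCGGG
PCR primer: aagcagtggtatcaacgcagagt

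Embryonic explants were compared with adult forebrain, both unamplified, to ask how the 7 genes differ between developing and adult tissue. Of the 7 genes 5 rose in the explants, Marcks, Marcksl1, Cd24a, Igfbpl1 and Nrep, with fitted folds of 6.10 to 38.6 for the first 4 and a lower bound of 40.9 for Nrep; Marcks and Cd24a were each saturated on 1 of 3 explant arrays. Gap43 and Basp1 did not pass the test in either direction. Over all 14207 probes tested, 41.7% passed, 15% as higher and 26.7% as lower (limma, Benjamini-Hochberg adjusted p under 0.05), and the median log2 difference was -0.31, against 2.69 over the 7 genes. The groups did not overlap for 5 of the 7, against 58.1% of all tested probes. Nrep entered the test only through the explants. In tissue RNA, fewer cells that make a transcript and less transcript per cell cannot be told apart.

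Gap43, the growth-associated protein of axon tips, had net intensities of 14034.5, 10279.5 and 5612 on the explant arrays, against 46203, 30403 and 36514 on the control arrays. These raw intensities did not overlap, but the explant arrays were dimmer as a whole: the median net intensity over all probes was 173 to 1101.5 on explant and 3390.5 to 4259.5 on control arrays. After normalization Gap43 averaged 13.90 ± 0.62 in explants and 14.12 ± 0.19 in controls (log2, SD, n = 3 each). The difference was -0.22 ± 0.34 (SE; 95% interval -1.01 to 0.58; limma adjusted p = 0.637). With the deposited signal values it was -0.89 and passed (adjusted p = 0.00541), and without explant 3 it was 0.14. The microfluidic arrays read 38681, 53477 and 55598.5, all detected, and the conventional arrays 1905.5, 102 and 5485.5, of which only conventional 3 was detected. In cells 1 and 2 the spot was saturated; cell 3 read 27535, and cell 4 read 478 and was not detected. In order of normalized means Gap43 ran from microfluidic (14.27) through control, explant and single cells (13.44) to conventional arrays (12.81), and each pair of neighbours overlapped.

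Basp1, which like Gap43 is a kinase C substrate of the axonal membrane, read 34010.5, 29302.5 and 32724.5 in explants, against 59227, 64502 (saturated) and 47444 in controls. Its normalized means were 15.26 ± 0.19 in explants and 15.07 ± 0.79 in controls (n = 3 each). The groups overlapped, and the difference of 0.20 ± 0.40 (95% interval -0.73 to 1.13) did not pass (adjusted p = 0.716). The 10 pg reactions read lower: 6321, 1950 and 7593.5 on the microfluidic arrays, and 581, 1389.5 and 632, none detected, on the conventional arrays. The cells read 2316, 2313, 1912 and 1557, with cells 1 to 3 above the detection limit. Explant and control arrays led the order of means and overlapped each other. The conventional (12.46), microfluidic (11.80) and single-cell arrays (11.05) followed, apart from the unamplified groups and overlapping their neighbours. The conventional mean rests on undetected spots, so its place above the microfluidic arrays is not read as a level.

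Marcks, the founding kinase C substrate of its family, read 62919 (saturated), 58255 and 15979 in explants, against 21414, 12365 and 16699 in controls. After normalization the explants lay at 15.29 ± 0.30 and the controls at 12.68 ± 0.31, with no overlap (n = 3 each). Marcks was 6.10-fold higher in explants (log2 difference 2.61 ± 0.28, adjusted p = 4.27e-04). Microfluidic 2 and 3 read 9511.5 and 14107; the spot of microfluidic 1 was marked bad and left out. The conventional arrays read 968, 1129 and 500, none detected. The cells read 64004 (saturated), 11519, 53479.5 and 64076 (saturated), and all 4 detected it. The order of means was explant, single cell (14.33), microfluidic (12.89), control and conventional (12.50), with overlap between all neighbours.

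Marcksl1, the smaller Marcks relative, read 23215.5, 17775 and 11688.5 in explants, against 2779, 2278 and 3208 in controls. Every explant array was brighter than every control array although the explant arrays were dimmer as a whole. Normalized means were 14.78 ± 0.21 in explants and 10.14 ± 0.22 in controls (n = 3 each), a 24.9-fold rise (log2 difference 4.64 ± 0.25, adjusted p = 2.69e-05). With the deposited signal values the difference was 2.81 and still passed. Microfluidic 1 was saturated at this spot, while microfluidic 2 and 3 read 1405.5 and 2054.5. The conventional arrays read 292.5, 1449 and 192.5 and the cells 1772, 845.5, 1553 and 484, and neither group detected it on any array. The explants led the order of means, followed by microfluidic (12.16), conventional (11.76), single cell (10.27) and control arrays. Each neighbour overlapped the next. The conventional and single-cell means rest on undetected spots with net intensities below every control array. Their places above the controls are therefore not read as levels.

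The promoters of Marcksl1 and Basp1 are shown because these 2 kinase C substrates differed in the explant comparison, 1 rising and 1 not passing. They were also the 2 of the 7 genes found in a search of the RefSeq promoter table. That search left out 1 chromosome, so a gene of the set lying there would not have been found. The table is of build GRCm38.p6 and gives 250 bases before to 50 after the start. Marcksl1 lies on the + strand at chr4:129513331-129513630 and Basp1 on the - strand at chr15:25413715-25414014. Capitals mark GC boxes (GGGCGG or its reverse CCGCCC) and CCAAT boxes (CCAAT or its reverse ATTGG).
Marcksl1: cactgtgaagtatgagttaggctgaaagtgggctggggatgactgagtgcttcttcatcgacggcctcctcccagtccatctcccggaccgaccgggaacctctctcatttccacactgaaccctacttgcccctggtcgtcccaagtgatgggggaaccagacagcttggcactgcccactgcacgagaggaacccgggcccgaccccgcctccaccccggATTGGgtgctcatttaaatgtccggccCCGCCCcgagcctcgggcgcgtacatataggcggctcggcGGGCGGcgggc
Basp1: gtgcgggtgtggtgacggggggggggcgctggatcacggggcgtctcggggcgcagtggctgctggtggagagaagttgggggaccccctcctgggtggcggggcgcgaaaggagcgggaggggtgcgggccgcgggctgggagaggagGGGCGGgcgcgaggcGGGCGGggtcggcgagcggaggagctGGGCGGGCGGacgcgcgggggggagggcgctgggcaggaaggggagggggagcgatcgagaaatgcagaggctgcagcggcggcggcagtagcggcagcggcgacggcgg
The Marcksl1 window holds 2 GC boxes and 1 CCAAT box, and the Basp1 window 4 GC boxes, 2 of which overlap, and 0 CCAAT boxes. On either strand, 35.7% of the 32851 promoters in the table hold a GC box and 37.4% a CCAAT box. An E-box (CANNTG) occurs 1 time in Marcksl1 and 0 times in Basp1, and in 72.3% of all promoters; TATAAA, read on both strands, occurs in neither and in 13.6% of all. Of all promoters in the table, 79.7% had a lower GC content than Marcksl1 and 98.1% a lower one than Basp1.

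Cd24a, the surface glycoprotein, read 63886 (saturated), 61323 and 54922 in explants, against 4836, 2114 and 4421.5 in controls. Its normalized means were 15.72 ± 0.23 in explants and 10.45 ± 0.45 in controls (n = 3 each). The explants stood apart from every other group. Cd24a was 38.6-fold higher in explants than in controls (log2 difference 5.27 ± 0.30, adjusted p = 3.55e-05). Microfluidic arrays read 175, 822.5 and 6051.5, of which only the last was detected, and conventional arrays 1494, 486 and 1017, none detected. Cells 1 to 3 read 9032.5, 13826.5 and 9584.5 and detected it; cell 4 read 1396.5 and did not. In the order of means the conventional (12.53) and single-cell arrays (12.23) followed the explants and overlapped each other. Controls and microfluidic arrays (10.23) came last and overlapped each other, and the 3 cells that detected Cd24a lay above every control array. The conventional mean rests on undetected spots with net intensities below every control array. Its place above the controls is therefore not read as a level. The leukocyte markers Ptprc and Cd3e were detected on no explant array, with a summed normalized intensity of 1939 to 4605 in explants and 4387 to 5005 in controls. Cd3e was detected on every control array. Ptprc was detected in no group, so its absence from explants carries no information. No separate marker of B cells or granulocytes is reported here. In the single cells too neither marker was detected, with a bad spot for Cd3e in cell 3. The part of such cells in the Cd24a signal was not tested.

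Nrep, the regeneration-linked gene, read 27691, 18037 and 16121 in explants, against 1278.5, 784 and 956 in controls, where it was not detected. The explants had a normalized mean of 14.96 ± 0.06 and the controls 9.06 ± 0.16 (n = 3 each). Nrep was at least 40.9-fold higher in explants, a bound that sets each control spot to the dimmest detected spot on that array (fitted log2 difference 5.90 ± 0.22, adjusted p = 1.34e-05; 3.96 with the deposited signal values). No other group came near the explants: microfluidic arrays read 372, -8 and 1866, conventional arrays -110.5, 76.5 and 214, and cells 890, 1785, 257 and 178. Of these 10 spots, only that of cell 2 was detected. Below the explants the order of means was single cell (9.70), conventional (9.54), microfluidic (9.21) and control, with overlap between all neighbours.

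Igfbpl1, the secreted binding protein relative, read 5153.5, 3824 and 3843 in explants, against 2506, 1895 and 2437.5 in controls. Normalized means were 12.62 ± 0.18 in explants and 9.93 ± 0.15 in controls (n = 3 each), a 6.44-fold rise (log2 difference 2.69 ± 0.23, adjusted p = 1.80e-04; 1.41 with the deposited signal values). Its highest normalized values were not in embryonic tissue but on the conventional arrays, which carry adult RNA and read 3720, 10951 and 3442, all detected. Microfluidic arrays read 415.5, -13 and 4258.5, with only microfluidic 3 detected. Cell 2 read 7319 and was detected, cells 3 and 4 read 403.5 and 512 and were not, and the spot of cell 1 was marked bad and left out. In the order of normalized means the conventional arrays (14.85) stood apart from the explants, and the explants from the cells (10.47), controls and microfluidic arrays (9.51), which overlapped their neighbours.

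**Figure D1:**
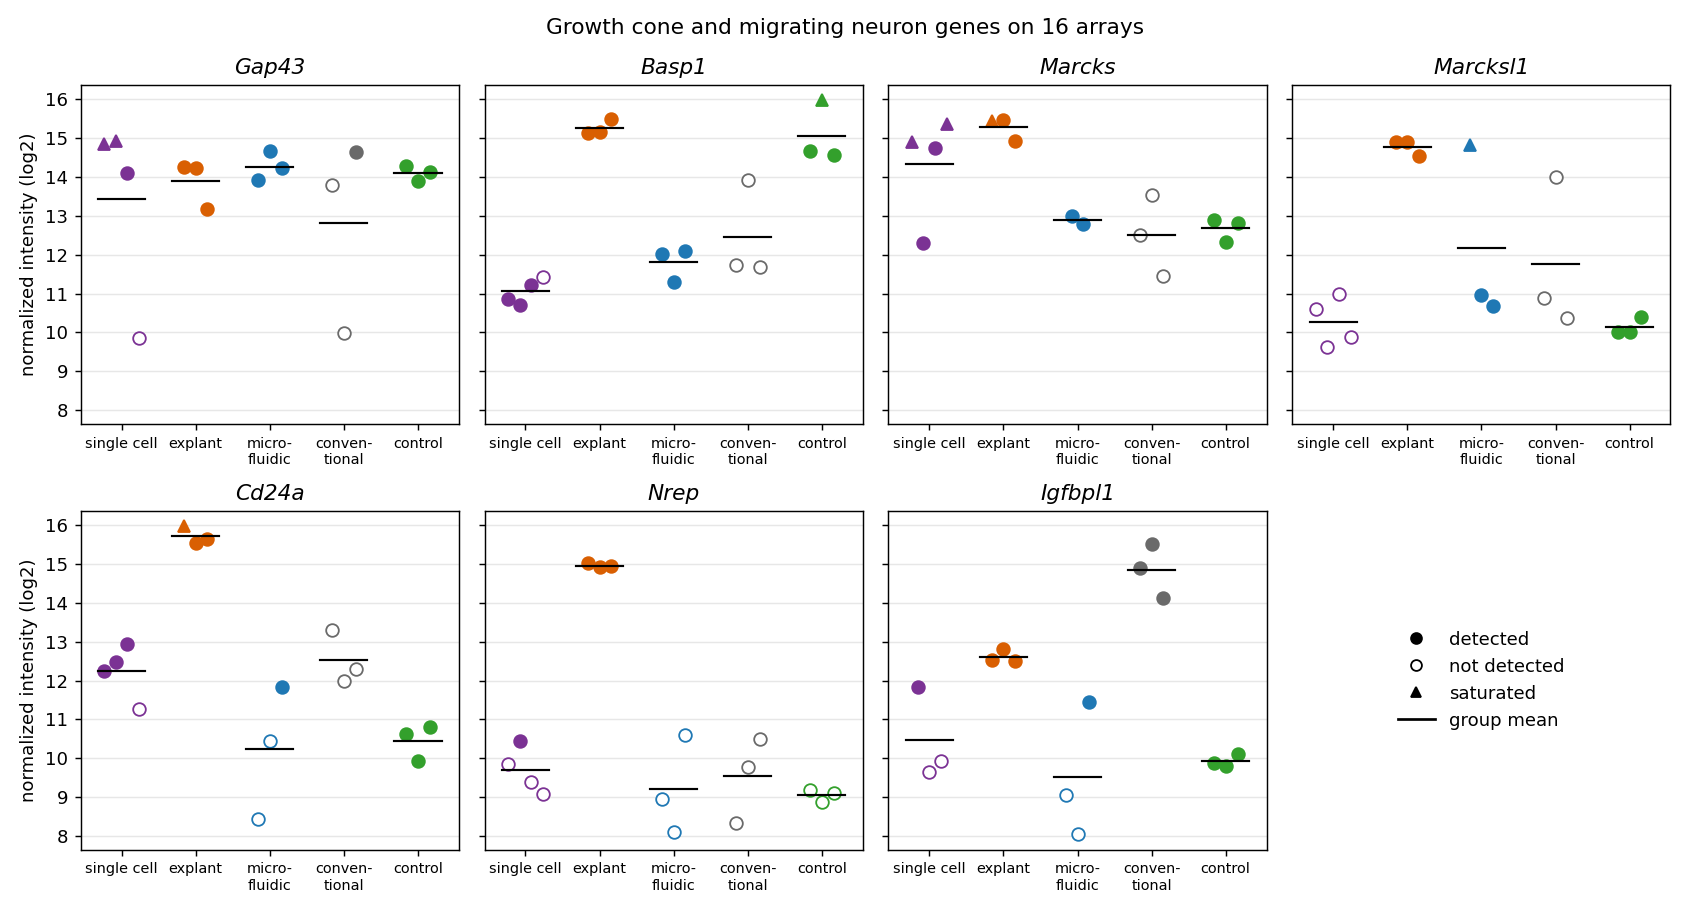
Normalized intensity (log2) of the 7 genes on all 16 arrays, by group; filled points are detected spots, open points are not detected, triangles are saturated and bars are group means. Marcksl1, Cd24a and Nrep lie above 14.5 on all 3 explant arrays and near 9 to 11 on the control arrays, whereas Gap43 and Basp1 overlap between explants and controls; Igfbpl1 is highest on the conventional arrays.

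Other growth cone and migration genes moved both ways in the explants. Of a list of 29 such genes, 26 were tested, and 10 rose and 4 fell; the list median was 0.63, against -0.31 for all tested probes. The largest rises were those of Sox11, a transcription factor of newborn neurons (at least 17.0-fold, saturated on all explant arrays; adjusted p = 6.29e-05), Dcx, the microtubule-binding doublecortin of migrating neurons (12.8-fold; log2 difference 3.68 ± 0.22), and Dpysl3, a collapsin response mediator (8.81-fold; 3.14 ± 0.23). The largest falls were those of the actin regulator Cap1 (at least 4.21-fold lower, saturated on all control arrays), the adhesion molecule Nrcam (-1.89 ± 0.43, adjusted p = 0.0105) and Dclk1, a kinase related to doublecortin (-1.66 ± 0.35, adjusted p = 0.00769). Nrcam was detected on 1 explant array and Dclk1 on 2, and both on all control arrays.

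**Figure D2:**
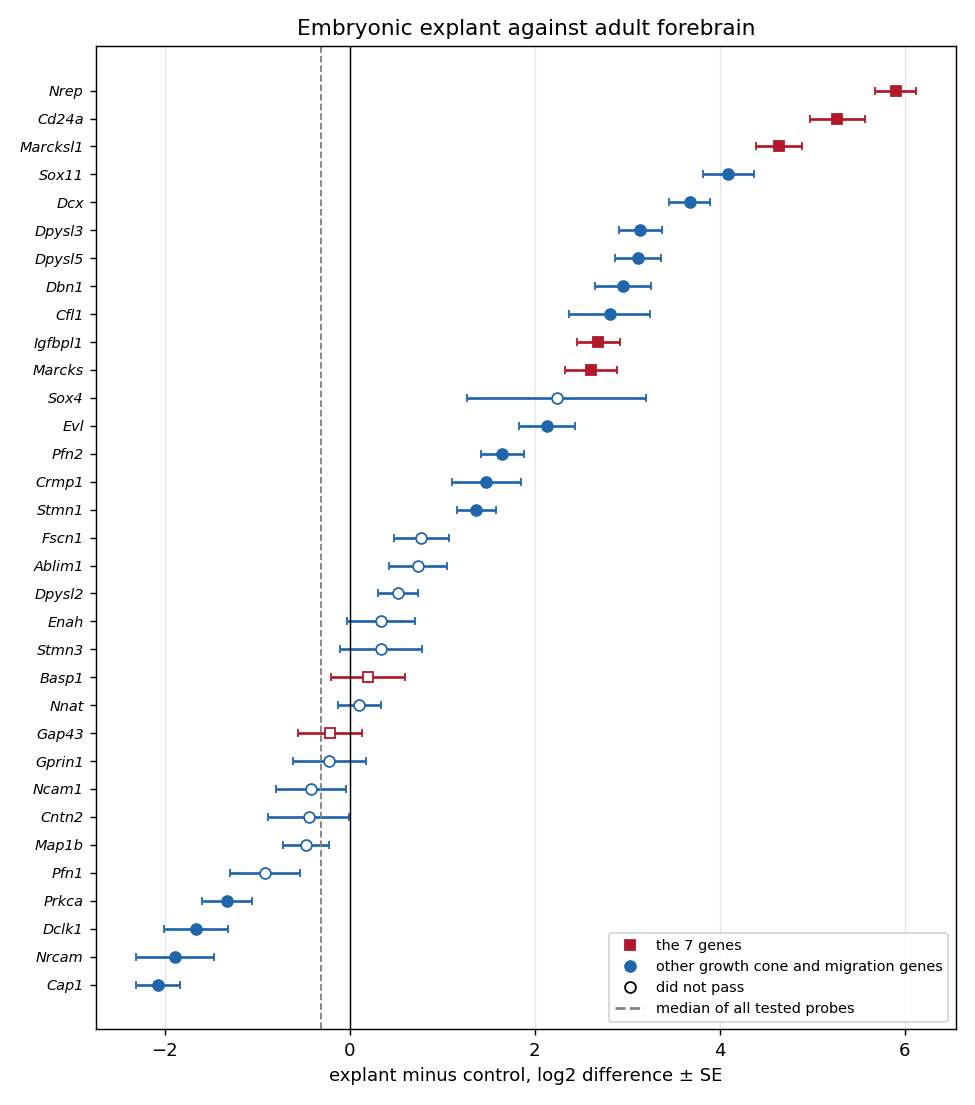
Explant minus control log2 difference with its SE for the 7 genes (squares) and the 26 tested genes of the growth cone and migration list (circles); filled symbols passed the test, and the dashed line is the median of all tested probes (-0.31). Fitted values of Nrep, Cd24a and Marcksl1 lie above those of every gene of the list, while Gap43 and Basp1 lie among the genes that did not pass.

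Markers of other cells moved with the same comparison. In the mature neuron and synapse list 0 genes rose and all 9 fell (summed normalized intensity 30328 to 34899 in explants and 301232 to 318935 in controls; Sncb, Nefl and Nefm were detected on no explant array). All 6 oligodendrocyte markers fell and were detected on no explant array (4412 to 5696 in explants, 100240 to 126367 in controls). Of 6 astrocyte markers 4 fell and 0 rose (19077 to 23496 in explants, 45060 to 92978 in controls; Aqp4, Slc1a2 and Gja1 detected on no explant array). Of the young-neuron list 3 of 4 tested genes rose (146201 to 170216 in explants, 15642 to 22377 in controls), of the progenitor list 2 of 4 (45508 to 99278 in explants, 8976 to 11265 in controls; Pax6 detected on no explant array) and of the CGE list 5 of 8 rose and 1 fell (173499 to 199659 in explants, 58136 to 71463 in controls). The part of these cell types in the differences of the 7 genes was not tested. Dcx, Sox11, Sox4 and Stmn2 stand in both the young-neuron and the growth cone list.

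The microfluidic arrays were compared with the controls to ask how 10 pg of adult forebrain RNA came through the mixer and amplification. Of 6 genes tested, Basp1 fell and none rose, against 59.1% of 15794 tested probes that passed, 24.3% that rose and 34.7% that fell; Nrep was detected in neither group and was not tested. Basp1 was 9.61-fold lower on the microfluidic arrays (11.80 ± 0.44 against 15.07 ± 0.79 in controls; log2 difference -3.26 ± 0.45, adjusted p = 7.53e-04). Its value was -3.52 to -2.20 under the alternatives and passed in all 17. Gap43, at 14.27 ± 0.37 on microfluidic arrays and 14.12 ± 0.19 on controls, differed by 0.16 ± 0.29 (95% interval -0.53 to 0.84; adjusted p = 0.669), and Marcks, at 12.89 on 2 arrays and 12.68 ± 0.31 on 3 controls, by 0.21 ± 0.33 (adjusted p = 0.600). The Gap43 difference depended on scaling: it was 1.75 with median centring (adjusted p = 0.00452) and 0.88 with the deposited signal values (adjusted p = 0.00952), both past the threshold.

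In normalized value Marcksl1 was higher on all 3 microfluidic arrays than on any control array, whereas the net intensities of microfluidic 2 and 3 lay below those of every control array; its spread was wide and the difference of 2.03 ± 1.02 did not pass (adjusted p = 0.125). That mean rests on the saturated spot of microfluidic 1; without that array the difference was 0.69. Cd24a differed by -0.22 ± 0.79 (adjusted p = 0.831) and Igfbpl1 by -0.42 ± 0.78 (adjusted p = 0.663), each detected on 1 of 3 microfluidic arrays. Igfbpl1 passed as lower without microfluidic 3, the array that detected it (-1.39, adjusted p = 0.0191). The groups did not overlap for 2 of the 6 genes, against 68.8% of all tested probes.

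Of the 29 other growth cone and migration genes, 26 were tested on microfluidic against control arrays, and 2 rose and 18 fell. Their median was -2.03, against -0.41 over all tested probes. On all microfluidic arrays 9 of the list were detected and on all control arrays 25, so most entered through the controls alone, which favours falls. Dcx rose (1.97 ± 0.25, adjusted p = 5.44e-04), as did Gprin1, which encodes an inducer of neurite outgrowth (1.32 ± 0.28, adjusted p = 0.00509). The largest fitted falls were those of the actin-binding profilin Pfn1 (-5.62 ± 0.43, detected on 1 of 3 microfluidic arrays, so its size rests partly on undetected spots), the microtubule protein Map1b (at least 47.2-fold lower, detected on no microfluidic array) and the profilin Pfn2 (at least 8.13-fold lower, likewise undetected).

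The conventional arrays answer the same question for a tube reaction and were set against the same control arrays, so the 2 comparisons are not independent. Igfbpl1 rose and Basp1 fell, and a call for Cd24a cannot be read as a level; 6 of the 7 genes were tested, and among all 14037 tested probes 28.8% passed, 6.5% higher and 22.3% lower. Igfbpl1 was 30.2-fold higher (14.85 ± 0.69 on conventional arrays against 9.93 ± 0.15 on controls; log2 difference 4.92 ± 0.52, adjusted p = 0.00108; n = 3 each) and passed in all 17 alternatives, with a value of 2.40 from the deposited signals. Its net intensity too was above every control array on every conventional array (3442 to 10951, against 1895 to 2506 on controls). The median net intensity of all probes was 177.5 to 212 on conventional arrays and 3390.5 to 4259.5 on controls. The size of the fold thus depends on the normalization. Of the 6 genes, 5 entered this test through 1 group only, Basp1 among them through the controls. Basp1, detected on no conventional array, was at least 1.57-fold lower (fitted -2.61 ± 0.75, adjusted p = 0.0345). This call was lost when conventional 1 or 3 or any 1 control array was left out (adjusted p up to 0.143).

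For Cd24a the fit gave 2.08 ± 0.55 (adjusted p = 0.0248), yet no conventional array detected it and its net intensities there (486 to 1494) lay below those of the controls (2114 to 4836), so no fold is given; the call was also lost when any 1 control array was left out (adjusted p up to 0.131). Gap43 (-1.30 ± 1.11, adjusted p = 0.404), Marcks (-0.18 ± 0.62, adjusted p = 0.849) and Marcksl1 (1.62 ± 0.91, adjusted p = 0.214) did not pass. The control means of Marcks, Marcksl1 and Cd24a lay below the lowest value that a conventional array could detect (13.84, on conventional 3), so a loss of these transcripts was not detectable on those arrays. The control mean of Gap43 (14.12) lay above that value but below the lowest detected values of conventional 1 and 2 (14.56 and 14.86). A loss of Gap43 was thus detectable on conventional 3 only. The groups did not overlap for 3 of 6 genes, against 49.5% of all tested probes. Of the growth cone and migration list 25 genes were tested, all of which entered through the controls alone, and such entry favours falls. Of these genes 1 passed as higher and 10 as lower (median -2.49, against -0.77 over all tested probes). Together 6 and 7 passed without control 1 or 2, and 0 to 19 over all alternatives. The call as higher was that of Dpysl3 (2.13 ± 0.61, adjusted p = 0.0340), which likewise cannot be read as a level: it was detected on 1 conventional array, and its net intensities were 2676, 4827 and 1760 on conventional arrays, against 15315.5, 11252 and 9371 on controls. By fitted value the falls were largest for Stmn1, a microtubule-destabilizing protein (-6.15 ± 0.49, no bound on its fold), Pfn1 (at least 2.21-fold lower) and Map1b (at least 2.61-fold lower). The fitted size for Stmn1 rests on undetected spots. Its control mean of 14.22 lay below the lowest detected values of conventional 1 and 2 (14.56 and 14.86). An unchanged level of Stmn1 was thus detectable on conventional 3 only.

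**Figure D3:**
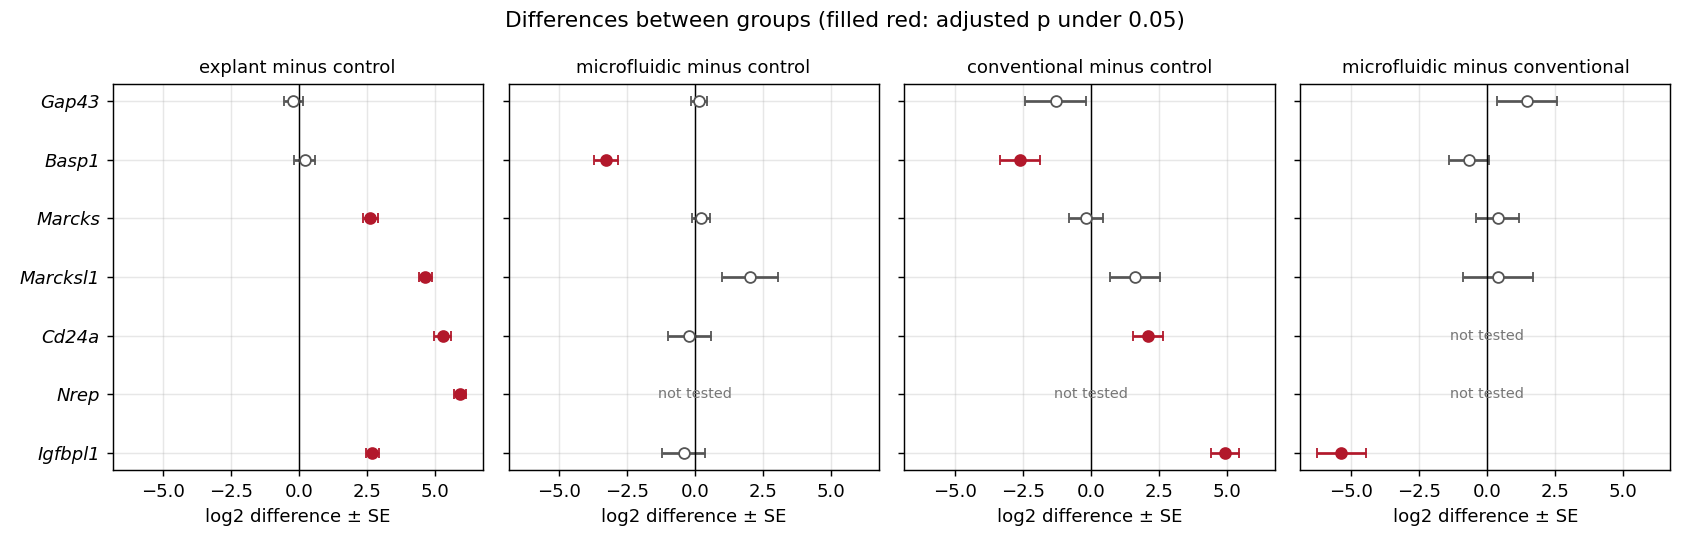
Log2 differences with SE for the 7 genes in the 4 tested comparisons; filled red points passed at an adjusted p under 0.05 and "not tested" marks genes detected on all arrays of neither group. Explants rose for 5 genes, Basp1 fell in both 10 pg comparisons with the control arrays, and Igfbpl1 rose on the conventional arrays.

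The mixer and the tube were compared directly at 10 pg. Igfbpl1 was lower in the mixer and no gene of the set rose: 5 genes were tested, against 25.6% of 7364 tested probes that passed, 21% that rose and 4.67% that fell. Igfbpl1, which entered this test only through the conventional arrays and was detected on 1 of 3 microfluidic arrays, was by the fit 40.6-fold lower on the microfluidic arrays (9.51 ± 1.75 against 14.85 ± 0.69 on conventional arrays; log2 difference -5.34 ± 0.89, adjusted p = 0.00575; n = 3 each), with a value of -6.31 to -2.67 over 16 alternatives, all past the threshold. Of the raw net intensities of Igfbpl1, that of microfluidic 3 (4258.5) lay within the conventional range of 3442 to 10951 and those of microfluidic 1 and 2 below it. Gap43 was detected on 3 microfluidic arrays and 1 conventional array, and its net intensity was at least 38681 on each microfluidic array and at most 5485.5 on each conventional array. After normalization its difference was 1.46 ± 1.10 (adjusted p = 0.349), which passed with deposited signal values (2.28) and after median centring (3.11). Basp1 (-0.65 ± 0.74), Marcks (0.39 ± 0.78) and Marcksl1 (0.41 ± 1.29) were detected on every usable microfluidic spot and on no conventional array, and none passed (adjusted p 0.533 to 0.837). Across the 7 genes, microfluidic arrays 1, 2 and 3 detected 3 of 6, 4 of 7 and 6 of 7, and conventional arrays 1, 2 and 3 detected 1, 1 and 2 of 7. The groups did not overlap for 1 of the 5 tested genes, against 48.4% of all tested probes. Of the growth cone list 9 genes were tested, all of which entered through the microfluidic arrays alone. Dcx (3.05 ± 0.55) and Gprin1 (2.46 ± 0.61) passed as higher, both undetected on all conventional arrays and without a bound on the fold. The list median was 1.97, against 1.01 over all tested probes. Such entry favours rises, so neither the count nor the median is read as a gain in the mixer. This count of 2 was 1 without microfluidic 1 or 3, 0 without microfluidic 2 and 4 without conventional 2.

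Single CGE cells were set against the explant RNA, cell by cell and without a test, since the labels tie no cell to an animal. Basp1, Marcksl1, Cd24a and Nrep lay below all 3 explant arrays in all 4 cells, and Igfbpl1 in all 3 cells with a usable spot; 64.1% of 3111 probes detected on all explant arrays did the same, 5.05% had all cells above, and the median difference over those probes was -2.14. The mean differences were -5.26 for Nrep, -4.50 for Marcksl1, -4.21 for Basp1, -3.49 for Cd24a and -2.15 for Igfbpl1 on the log2 scale. Marcksl1 was detected in no cell, as were 23.3% of those probes, and was at least 16.4-fold lower in cells. Marcks and Gap43 came closest to the tissue. Marcks differed by -0.37, -2.98, -0.54 and 0.08 from the explant mean in cells 1 to 4. Its spots were saturated in cells 1 and 4 and on explant 1. The size of its differences, and their sign in cells 1 and 4, is therefore uncertain. Gap43 differed by 0.95, 1.04, 0.20 and -4.03 from the explant mean. Cells 1 and 2 were thus above all explant arrays for Gap43, both with saturated spots, and cell 4 was far below.

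Among the cells the SD of the normalized value was largest for Gap43 (2.41), Marcks (1.38) and Igfbpl1 (1.19, 3 cells), and 0.33 to 0.70 for the other genes of the set. Cell 2 detected 6 of the 7 genes and was the lowest cell for Marcks. Cells 1 and 3 each detected Gap43, Basp1, Marcks and Cd24a. Cell 4 detected Marcks alone, at a saturated spot; it was scanned in another session and had the lowest share of detected probes (26.5%, against 35.5% to 52.5% in the other cells). The microtubule gene Tubb3 was detected in all 4 cells, cell 4 included (net intensity 64309.5, 64465, 26306 and 64279 in cells 1 to 4), and so was Dcx, with 37142.5, 37732.5, 14013 and 1699.5. Among lineage markers, the interneuron factor Dlx2 (12316, 64223, 5833 and 14226) and the vesicular glutamate transporter gene Slc17a7 (64439.5, 63770, 64371 and 60514) were both detected in all 4 cells. Slc17a7 was detected on no explant array. The microglial marker Csf1r (12609.5, 10165, 4225.5 and 16197.5) and the endothelial marker Cdh5 (9805, 6399, 3275 and 7787) were likewise detected in all 4 cells. These detections are thus not read as the lineage of a cell. Dlx1 was detected in cell 4 only, with a bad spot in cell 2, and the GABA-synthesis gene Gad1 and the CGE factor Nr2f2 in cell 2 only. Among progenitor genes, Vim, Hes5, Sox2, Pax6 and Fabp7 were detected in no cell and Nes in cells 1 to 3. Without cell 4 the mean Gap43 difference from the explants was 0.73 in place of -0.46.

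**Figure D4:**
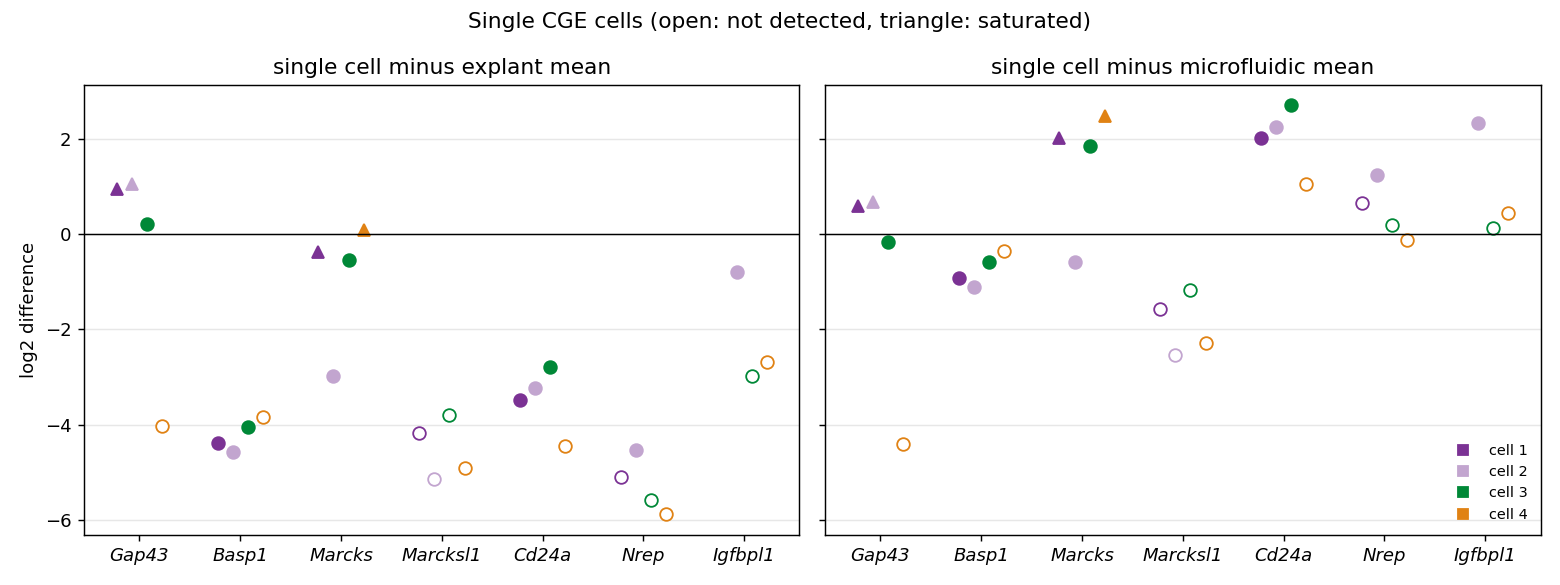
Log2 difference of each single cell from the explant mean (left) and from the microfluidic mean (right) for the 7 genes, with open points for undetected and triangles for saturated spots. Basp1, Marcksl1, Cd24a and Nrep lie below -2 in every cell on the left, while Marcks and Cd24a lie above 1 in at least 3 cells on the right and Gap43 of cell 4 lies near -4 in both.

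The microfluidic arrays share the mixer and the 40 cycles with the cells, but hold adult RNA of another strain. Against them, Cd24a averaged 2.00 higher in the cells and Marcks 1.44 higher, each with 3 of 4 cells above all microfluidic arrays. For Marcks the cell below was cell 2 and the comparison rests on 2 microfluidic arrays; for Cd24a the remaining cell was cell 4, at 1.04 above the microfluidic mean. Igfbpl1 and Nrep were detected in cell 2 only and on 1 and 0 microfluidic arrays, so their mean differences (0.96 and 0.49) lie between mostly undetected spots and are not read as levels. Basp1 (-0.75), Gap43 (-0.83) and Marcksl1 (-1.89) averaged lower, and without cell 4 the Gap43 difference was 0.36. None of the 7 genes had all its cells above or all below the microfluidic arrays. Of 7153 probes detected on all microfluidic arrays, 3.68% had all cells above and 12.7% all below. Cd24a, Igfbpl1 and Nrep are not among those probes. Marcksl1 was detected in no cell and on all 3 microfluidic arrays, as were 4.46% of those probes.

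Across the arrays the 7 genes did not vary as 1 block. Over 16 arrays the highest Pearson r between normalized values of 2 of them was 0.846 (Cd24a with Nrep), and the lowest was -0.296 (Gap43 with Marcks, 15 arrays). The probes whose values were most like each gene were picked among 13244 named probes detected on at least 4 arrays. They were Pcyt1b (r = 0.940), Lzts2 (0.893) and Tmem189 (0.879) for Gap43, and Megf9 (0.973), Klhdc2 (0.960) and Gpn2 (0.960) for Basp1. For Marcks they were Smarcb1 (0.931), Lmnb1 (0.884) and Rgcc (0.882), and for Marcksl1 Vcan (0.880), Armc10 (0.878) and Ezh2 (0.876). Cd24a was most like Rbm6 (0.897), Mob1a (0.890) and Vps35l (0.889), and Nrep like Hnrnph1 (0.929), Pcna (0.928) and Eif4g2 (0.925). Igfbpl1 was most like Kif20a (0.928), Zdhhc5 (0.926) and Tmem116 (0.925). Each r is a description over 16 arrays (15 for Marcks and Igfbpl1) in 5 groups, and arrays of a group share their tissue, protocol and scan session.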

How the data were processed

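RNA was measured on 16 one-colour spotted arrays. The deposited scanner files hold raw foreground and background intensity per spot, per the file headers and column names, not normalized by the authors. The deposited spot marks are a score without a scale. The deposited series table holds the authors' linear signal values, whose scaling and centring are not given in the sources used here (column medians 2.95 to 7.77) and which correlated with the log2 foreground of their array (r 0.918 to 0.993). They served as an alternative.

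Spots of 24109 gene probes were named by the platform annotation and current RefSeq symbols (20850 probes with a symbol, 197 with conflicting names left unnamed). Unsaturated spots that carry the mark for bad (-100) were dropped, which removed Marcks on microfluidic 1 and Igfbpl1 in cell 1. Intensities were corrected by normexp (offset 50), quantile-normalized over 16 arrays and taken to log2 in limma 3.58.1 under R 4.3.3. Detection needs a foreground above the background by 2 background SD; conventional 1 has no such SD and was given 1441, the mean of the medians of conventional 2 and 3. Pairs of groups were tested by limma (two-sided, own spread); a probe entered where at least 1 of both groups detected it on every array, with Benjamini-Hochberg adjustment over all tested probes and a threshold of 0.05; fold bounds set an undetected spot to the dimmest detected spot on that array. Cells were described without a test. Promoters came from a RefSeq table. The limma fit was tested on simulated data with shifts of known size.

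All 7 genes are named. Other genes named are the 3 most correlated with each, the up to 3 highest and 3 lowest passing genes of the growth cone list, and cell markers; 2 genes of these lists are not reported here and enter no list count. The members, lists and tests were chosen with earlier results of these data known. Same-numbered arrays of different groups did not deviate together (correlations -0.20 to 0.09), so replicate numbers pair no samples. Alternatives were median centring, quantile normalization of 2 groups only, uncorrected background, the deposited signal values, no filter on dim probes, detection at 3 background SD or in both groups, the spread from all 16 arrays, an intensity trend, the replicate number as a block and each array left out; keeping bad spots and a blank-spot detection limit for conventional 1 were added after seeing the data.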

Additional observations from a re-analysis of the deposited data

Results flagged for a closer look

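Gap43 stood out within the single cells. Its normalized values were 14.85, 14.94, 14.10 and 9.87 in cells 1 to 4, and the gap between cell 4 and the nearest cell took up 0.835 of the whole range, above Dixon's 95% limit for a group of 4 samples. Chance flags about 1 in 20 such groups, and 6 genes were tested this way, the only groups of 4. Both highest spots are saturated, which narrows the range from above and so raises the value of 0.835. Whether Gap43 would be flagged without saturation cannot be told. Cell 4 was scanned in another session and had the lowest share of detected probes (26.5%). The part of session, amplification yield and the cell itself in this value was not tested.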

How the results depend on the processing

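Of 24 tested differences of the 7 genes, the rises of Marcks, Marcksl1, Cd24a, Nrep and Igfbpl1 in explants, the fall of Basp1 on microfluidic arrays and both Igfbpl1 calls with conventional arrays passed under every alternative in which they were tested. The changes of sign all concerned differences that had not passed. Leaving out 1 array at a time, Gap43 ranged from -0.40 to 0.14 and Basp1 from -0.056 to 0.65 between explants and controls. Between microfluidic and control arrays the ranges were -0.040 to 0.33 for Gap43, -1.01 to 0.69 for Cd24a and -1.39 to 0.31 for Igfbpl1. Conventional and control arrays gave -2.22 to 0.12 for Gap43 and -0.70 to 0.35 for Marcks. Microfluidic and conventional arrays gave -1.04 to 0.085 for Basp1, -0.13 to 0.91 for Marcks and -0.93 to 1.53 for Marcksl1. Signs also turned on microfluidic against control arrays for Cd24a without background correction (0.035) and Marcks with deposited signals (-0.38), and on microfluidic against conventional arrays for Basp1 with median centring (0.36). The cause was not tested.

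Among the 7 genes, 1 changed on microfluidic against control arrays, and 2 did with median centring or deposited signals (1 to 2 leaving out 1 array). On conventional against control arrays 3 changed, but 6 with deposited signals and 1 with detection at 3 background SD or in both groups, where fewer genes are tested (1 to 3 leaving out 1 array). Between microfluidic and conventional arrays 1 changed, but 3 with median centring, 2 with deposited signals and 0 with detection at 3 background SD or in both groups (1 to 1 leaving out 1 array). Between explants and controls 5 changed (5 to 5 leaving out 1 array), 6 with deposited signals and 4 with detection at 3 background SD or in both groups. The counts of other growth cone genes ranged, over all alternatives, from 6 to 16 (14 reported) for explant against control, 4 to 21 (20) for microfluidic against control, 0 to 19 (11) for conventional against control and 0 to 5 (2) for microfluidic against conventional arrays.

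Over all probes, explant against control gave 5926, but 1520 with detection in both groups and 1760 with the spread of all 16 arrays (4157 to 6268 leaving out 1 array). Microfluidic against control gave 9328, and 2883 with detection in both groups (7759 to 9759). Conventional against control gave 4049, but 8232 with deposited signals, 6741 without the dim-probe filter and 179 with detection in both groups (1736 to 5952). Microfluidic against conventional gave 1887, but 3649 with median centring, 2877 with deposited signals, 88 with detection in both groups and 3128 with the spread of all 16 arrays (533 to 2296). With the replicate number as a block the 4 comparisons gave 4710, 8649, 3764 and 1646 probes and changed no call among the 7 genes; the numbers share no source. The 3 or 4 arrays in a group limit precision, and on conventional arrays signal over background does.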
